A study of Mus musculus with 12 samples.

Results

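The comparison set 3 arrays labelled Rb;E2f8 DKO (below, DKO) against 3 labelled Rb KO, 6 of the 12 arrays in the series, and covered every gene tested. Each array measured RNA from mouse spleen cells sorted for high CD71, the transferrin receptor of iron-loading erythroblasts, and for Ter119, a surface marker of the red cell lineage. The animals were 3 months old in all groups. The Rb KO arrays carry the knockout of Rb alone and the DKO arrays that of Rb and E2f8, so that both compared groups share the Rb knockout and differ in E2f8. The other 2 groups were wild type (WT) and a knockout of E2f8 alone (E2f8 KO), also with 3 arrays each. They are compared with each other at the end. All 12 arrays entered 1 fit, so these groups also helped set the filter and the spread behind every standard error and p-value. The labels call replicates biological. The sources used here do not give the alleles, any Cre driver, the strain or whether animals were pooled. Values are log2 signals, so that a difference of 1 is a 2-fold change.

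Rb1 encodes the retinoblastoma protein, a pocket protein that binds activator E2F transcription factors and holds back the genes of S phase entry. E2f8 encodes an atypical E2F, which binds DNA without a DP partner, represses E2F target genes, and is itself switched on by activator E2Fs together with its relative E2f7. Erythroblasts divide rapidly and couple their last divisions to hemoglobin loading, chromatin condensation and loss of the nucleus, and the retinoblastoma protein is known for a role in that exit. The comparison asks what the additional loss of E2f8 does to cells that already lack Rb.

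Probe sets whose mean lay in the lowest 40% (at or below 5.84) were removed, which left 12980 genes. A gene was called higher or lower at an adjusted p under 0.05. Replicates correlated across genes with Pearson's r from 0.920 to 0.988 among the Rb KO arrays and from 0.968 to 0.983 among the DKO arrays, and the median standard error of a difference was 0.184. Erythroid genes were high on every array. Slc4a1, the anion exchanger of the red cell membrane, read 14.18, 14.12 and 14.05 in Rb KO against 14.21, 14.20 and 14.16 in DKO. Tfrc, which encodes the CD71 of the gate, read 12.83, 12.27 and 11.73 against 12.87, 12.77 and 12.95. The targeted genes did not mark the labels. E2f8 read 12.36, 12.52 and 11.68 in Rb KO against 13.13, 13.17 and 13.09 in DKO, so that the arrays labelled as its knockout were higher by 0.94 ± 0.19 (SE, n = 3 in each group, limma's adjusted p = 0.00224). Rb1 read 12.53, 12.33 and 12.39 against 12.23, 11.98 and 12.17 (difference -0.29 ± 0.11, adjusted p = 0.0607, and called with other settings, such as quantile normalization at 0.0403). Where the probe sets of both genes lie relative to any deleted exon is not known here, so their signals cannot test the labels. All directions below therefore rest on the array labels. Replicate 3 of DKO also stood apart in sex-linked genes: Xist read 3.99 there and 11.30 to 12.18 on the other 5 compared arrays, and the Y-linked Eif2s3y 7.82 against 2.79 to 3.14.

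Signals of other spleen cells differed strongly between the groups, and this touches every result below. The mean log2 signal of the 17 B cell markers was 9.17, 11.62 and 11.51 in the Rb KO arrays against 6.13, 6.42 and 7.08 in the DKO arrays, with replicate 1 of Rb KO apart from the other 2. All 17 were lower in DKO, with a median difference of -4.16, where the median of all genes was -0.01 and 17.6% of them were lower. Cd79b, of the B cell receptor, read 11.62, 13.32 and 13.37 against 7.23, 7.72 and 8.74. Its difference was -4.87 ± 0.46 (adjusted p = 2.73e-05). Its partner Cd79a differed by -4.74, Ms4a1 (CD20) by -5.22, Ebf1, the transcription factor of B cell commitment, by -5.0, and the complement receptor gene Cr2 by -4.95. The 8 genes of the MHC class II list were all lower (median -4.03), with the invariant chain gene Cd74 at -4.62. H2-Aa read 11.77, 12.78 and 12.84 against 7.15, 7.74 and 8.53. All 13 tested T cell markers were lower (median -1.09, with the T cell receptor chain gene Cd3g at -3.07). Of 13 NK cell markers on the array only 5 passed the filter, and all 5 were lower (3 without replicate 3 of Rb KO). Lower too were 8 of 11 dendritic cell and 5 of 8 plasma cell markers. The DKO means of Ebf1, Cr2 and Cd3g (5.79, 5.61 and 4.87) lay under the filter level. These genes passed it only through groups where they were high, so that the sizes of their differences are uncertain. Of 22 macrophage and monocyte markers, 14 were lower and 0 higher (median -1.25). Their mean was 8.39, 8.53 and 8.30 in Rb KO against 7.11, 7.21 and 7.85 in DKO. Adgre1, the gene of a macrophage surface receptor, differed by -2.12, Csf1r by -2.32 and Vcam1, an adhesion molecule of erythroblastic island macrophages, by -1.97. Spic, the transcription factor of red pulp macrophages, differed by -1.67. All 4 were called.

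Granulocyte markers were higher mainly on 1 DKO array. Their mean over 20 genes was 6.81, 6.80 and 6.89 in Rb KO against 6.75, 7.77 and 10.02 in DKO. S100a8 and S100a9, of the calprotectin complex, Chil3 and Ltf (lactoferrin) were called higher. The Rb KO values of Chil3 (5.59, 5.10 and 5.37) and its WT mean of 4.69 lay under the filter level. Chil3 passed the filter only through the groups where it was high, so that the size of its difference and its calls are uncertain. S100a8 read 6.90, 6.68 and 7.36 against 7.44, 9.25 and 12.08, a difference of 2.61 ± 0.78 (adjusted p = 0.0185) and of 1.37 without replicate 3 of DKO. Without that array S100a9 and Chil3 went from 2.44 and 2.53 to 1.25 and 1.21 and Ltf from 2.26 to 0.90, where it was no longer called. S100a8, S100a9 and Chil3 were not called without replicate 2 of Rb KO (2.46, 2.37 and 2.41). Chil3 also lost its call when replicate 3 of Rb KO was left out (2.54), and Ltf not without any array but replicate 1 of DKO (0.90 to 2.52). Leaving out replicate 1 of DKO gave 16 higher markers, leaving out replicate 3 of Rb KO gave 2 and leaving out replicate 2 gave 0. The list's median went from 1.38 to 0.46 without replicate 3 of DKO. In bulk RNA, fewer cells of a type and less RNA per cell cannot be told apart.

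**Figure D1:**
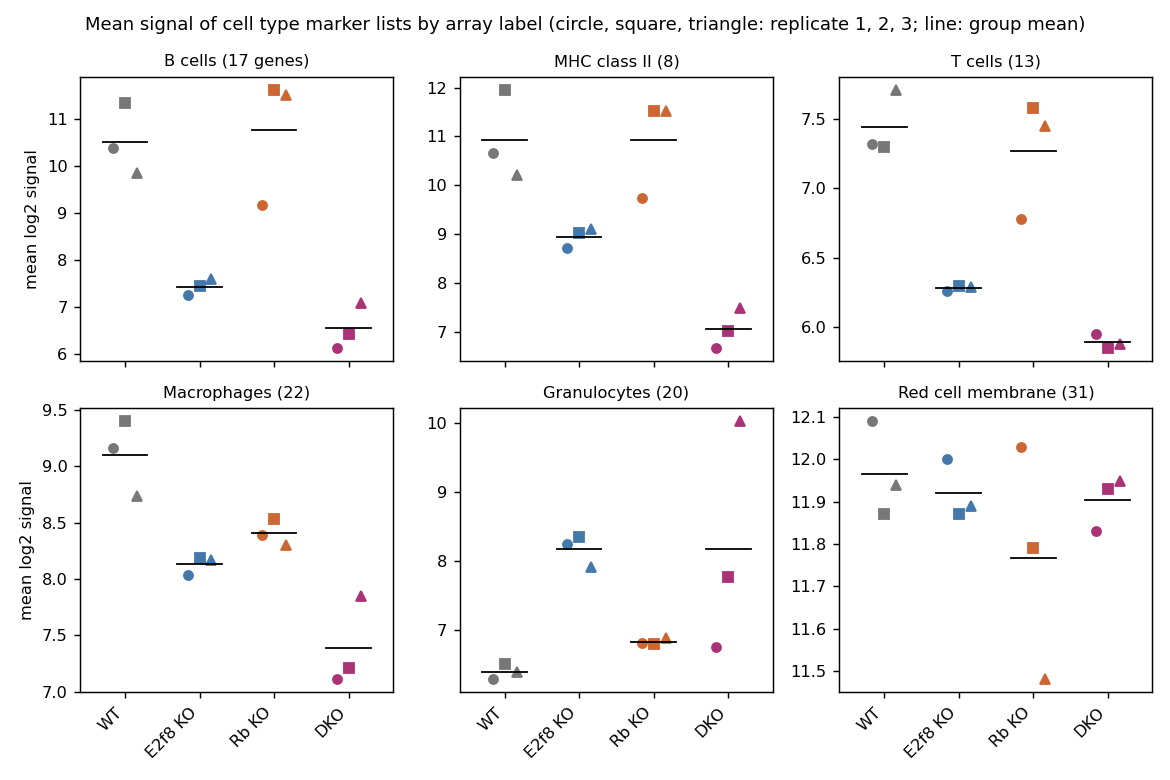
Mean log2 signal of 5 marker lists and of the red cell membrane list (y axes, with a range of their own in each panel) by array label (x axis). Points are arrays and the line is the group mean: the B cell list lies at 9.17 to 11.62 in Rb KO and at 6.13 to 7.08 in DKO, and the granulocyte list spans 6.75 to 10.02 within DKO.

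To show how far the results move with the B cell signal, each was also fitted with every array's mean over the B cell markers as an added term, called the B cell covariate below. The slope on it comes from differences within groups, which were largest in Rb KO, where replicate 1 lay lowest, and it is carried over the gap between the groups. Values under it are therefore uncertain, and the part of the other cells in the result was not tested beyond it.

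In all, 4819 of 12980 genes (37.1%) were called, 2531 higher (19.5%) and 2288 lower (17.6%) in DKO. The arrays of the groups did not overlap in 5653 genes (43.6%). Of the called genes, 1004 were at least 2-fold higher and 1164 at least 2-fold lower. With the B cell covariate, DKO against Rb KO had 516 called genes, 343 higher and 173 lower. Of these, 154 were also higher and 115 also lower without it, and 42 had the opposite direction. The median of all genes was 0.04 under the covariate. So few of the 12980 genes were called there that 0 or few calls in a list below lie near the share of all genes. They do not show that the list's difference is gone. Leaving out replicate 1 of Rb KO and replicate 3 of DKO together, the arrays that stood apart, gave 5368 called genes, of which 2279 higher and 2106 lower genes were shared. A fit of only the 6 compared arrays called 1857 genes higher and 1719 lower, of which 1848 and 1696 were shared.

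Several of the largest gains in DKO were of genes near the filter level in Rb KO. Eda2r, a receptor of the TNF family and p53 target, read 5.37, 5.33 and 5.26 in Rb KO against 9.40, 9.46 and 10.10 in DKO. Its difference was 4.33, and 4.46 with the B cell covariate. Its Rb KO values lay under the filter level, as did its WT mean of 5.29. It passed the filter only through the groups where it was high. The size of the difference is therefore uncertain, no p-value is given, and its calls below carry that limit. Mybl1, a Myb family transcription factor, was higher by 3.29 ± 0.31, Fhl1, a LIM domain protein, by 3.26 ± 0.20 and Slfn9, of the Schlafen family, by 3.24 ± 0.28. Klhl7, an adaptor of a cullin ubiquitin ligase, read 5.98, 6.29 and 6.24 against 9.93, 9.04 and 8.99. Mid1, a microtubule-associated ubiquitin ligase, was higher by 2.53 ± 0.28, and Git1, an adaptor of Arf signalling, by 2.55 ± 0.22. Sox12 and the phosphatase gene Dusp10 were higher by 2.38 and 2.31. All of these but Mybl1 (1.79, adjusted p = 0.0921) were also called with the B cell covariate. Among lower genes called in both fits were the lysosomal genes Lgmn (-2.33 ± 0.17) and Lipa (-2.29 ± 0.18), the scavenger receptor Cd36 (-2.18 ± 0.23) and the secreted phospholipase Pla2g2d (-2.90 ± 0.20). Lgmn read 10.98, 11.21 and 11.28 against 8.71, 8.65 and 9.11.

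The miRNA cluster that holds miR-17 and miR-18a, a known E2F and Myc target, was read higher in DKO. Mir18 read 5.34, 4.86 and 5.13 in Rb KO against 7.82, 7.59 and 8.25 in DKO (difference 2.78). The host transcript Mir17hg read 5.28, 5.36 and 5.33 against 6.94, 7.17 and 7.27 (difference 1.80). Arrays of the groups did not overlap, and the differences were 2.67 and 2.13 with the B cell covariate. All Rb KO values lay under the filter level of 5.84, as did the WT means of 5.51 and 5.32. Both genes passed the filter only through the groups where they were high, so that the size of these differences is not well measured, and no test is given. The probe sets do not resolve mature arms, whose sequences (RefSeq, GRCm38.p6, chr14:115043867-115043889 and chr14:115043908-115043929, plus strand) are shown with the seed, bases 2 to 8, in capitals to show what this precursor yields.
miR-18a-5p: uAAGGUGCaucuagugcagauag
miR-18a-3p: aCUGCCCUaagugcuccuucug

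Most of the pocket protein and E2F family rose. Of 21 tested members, 17 were higher (81.0%, against 19.5% of all genes) and 1 was lower, with a median difference of 0.94. Among the atypical E2Fs, E2f7 read 10.63, 10.37 and 9.53 in Rb KO against 11.95, 12.18 and 12.49 in DKO, a difference of 2.03 ± 0.25 (adjusted p = 0.000123), and E2f8 itself was higher as given above. Of the activators, E2f1 read 11.78, 11.14 and 11.15 against 12.13, 12.22 and 12.38 (difference 0.88 ± 0.23, adjusted p = 0.00905). E2f3 was higher by 0.84 ± 0.29 and E2f2 by 0.39 ± 0.12, and E2f6, which represses with Polycomb partners, by 2.18 ± 0.37. E2f4, the main E2F of quiescent cells, was higher by 0.45 ± 0.15. Lin54, the DNA-binding subunit of the DREAM and MuvB complexes, was higher by 1.33 ± 0.21. The pocket proteins diverged: Rbl1 (p107) was higher by 0.97 ± 0.22, and Rbl2 (p130), the pocket protein of resting cells, was the lower member at -1.0 ± 0.19. Rbl2 read 8.28, 8.66 and 8.78 against 7.44, 7.77 and 7.5. The calls for E2f2, E2f3 and E2f4 leaned on single arrays: E2f3 was no longer called without any array but replicate 1 of Rb KO (0.54 to 0.88), E2f2 without replicate 2 or 3 of Rb KO or 2 of DKO (0.37, 0.32 and 0.33), and E2f4 without replicate 3 of Rb KO or 1 or 2 of DKO (0.27, 0.48 and 0.36). With the B cell covariate 0 of 21 members were called, where 343 of all 12980 genes were higher and 173 lower, and the median was 0.22. E2f7 kept a difference of 1.38 there (adjusted p = 0.167).

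E2F factors bind a GC-rich site, so promoters of this family and of DNA replication genes were searched. The window was the 250 bases before each gene's start (RefSeq, GRCm38.p6), searched on both strands for TTTCCCGC, TTTCGCGC, TTTGCCGC and TTTGGCGC. At least 1 word was found in 2.16% of 27025 genes with a promoter and in 3.70% of the 10317 that were also tested. Among genes higher in DKO the share was 7.57% (157 of 2074), and among lower genes 2.67% (49 of 1832). In the E2F family 5 of 15 members held a word (33.3%) and in the DNA replication list 11 of 46 (23.9%). A match describes these letters and is not a measured binding site. The 3 largest gains with a match in either list are shown with the matched word in capitals, to let the words be compared in place. They were taken from called genes whose arrays did not overlap, and promoters on 1 chromosome were left out of this choice.
E2f7: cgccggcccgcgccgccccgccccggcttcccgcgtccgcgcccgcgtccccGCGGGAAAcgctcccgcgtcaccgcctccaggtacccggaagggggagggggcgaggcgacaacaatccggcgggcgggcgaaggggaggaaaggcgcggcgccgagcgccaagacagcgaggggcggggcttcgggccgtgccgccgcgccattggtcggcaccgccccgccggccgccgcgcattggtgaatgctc
Tfdp1: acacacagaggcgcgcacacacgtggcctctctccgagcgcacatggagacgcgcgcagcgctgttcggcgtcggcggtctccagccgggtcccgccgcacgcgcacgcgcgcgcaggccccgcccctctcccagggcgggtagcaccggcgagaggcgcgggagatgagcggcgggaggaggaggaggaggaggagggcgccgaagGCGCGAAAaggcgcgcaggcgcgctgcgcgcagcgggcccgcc
Lin52: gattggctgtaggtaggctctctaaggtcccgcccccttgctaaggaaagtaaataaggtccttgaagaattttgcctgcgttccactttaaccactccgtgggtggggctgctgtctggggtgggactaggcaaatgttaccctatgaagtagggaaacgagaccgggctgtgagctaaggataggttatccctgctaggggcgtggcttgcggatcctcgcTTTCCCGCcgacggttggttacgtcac
Pola1: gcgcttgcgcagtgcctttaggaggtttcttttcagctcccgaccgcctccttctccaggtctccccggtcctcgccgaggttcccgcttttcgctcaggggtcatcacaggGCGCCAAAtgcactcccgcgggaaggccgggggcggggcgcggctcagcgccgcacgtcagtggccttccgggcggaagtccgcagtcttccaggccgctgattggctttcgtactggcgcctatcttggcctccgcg
Rfc3: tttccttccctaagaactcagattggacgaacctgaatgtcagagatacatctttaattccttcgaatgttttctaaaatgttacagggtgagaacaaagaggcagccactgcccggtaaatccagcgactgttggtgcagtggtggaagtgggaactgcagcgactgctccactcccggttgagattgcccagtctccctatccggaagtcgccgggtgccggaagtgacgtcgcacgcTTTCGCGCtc
Gins3: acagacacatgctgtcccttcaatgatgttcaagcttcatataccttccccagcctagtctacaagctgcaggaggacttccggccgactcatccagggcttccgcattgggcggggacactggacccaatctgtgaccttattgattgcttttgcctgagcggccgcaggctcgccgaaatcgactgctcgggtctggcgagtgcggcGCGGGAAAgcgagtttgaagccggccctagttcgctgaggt
The E2f7 window (chr10:110745189-110745438, plus strand) holds its word 198 bases before the start. That of Tfdp1 (chr8:13338501-13338750, plus strand), the DP partner of activator E2Fs, holds it at 43 bases, and that of Lin52 (chr12:84451258-84451507, plus strand), a MuvB subunit, at 27 bases. The word lay 138 bases before the start in Pola1 (chrX:93632156-93632405, minus strand), of DNA polymerase alpha, 10 bases in Rfc3 (chr5:151651209-151651458, minus strand), of the clamp loader, and 41 bases in Gins3 (chr8:95633309-95633558, plus strand), of the replicative helicase. E2f7 was higher in DKO by 2.03, Tfdp1 by 1.19 and Lin52 by 1.01. Pola1 was higher by 1.54, Rfc3 by 1.30 and Gins3 by 1.19. The choice of all 6 windows used these values.

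Of 21 G1/S cyclins and regulators, 10 were higher (47.6%) and 2 lower, with a median of 0.28. Ccne2 (cyclin E2), which drives S phase entry with Cdk2, read 11.73, 10.84 and 10.61 against 13.16, 12.85 and 13.17 (difference 2.0 ± 0.28, adjusted p = 0.000275). Ccne1 was higher by 1.45 ± 0.23, Cdk2 by 1.66 ± 0.22 and its activating phosphatase Cdc25a by 1.42 ± 0.23. Skp2, the ubiquitin ligase subunit that marks p27 for degradation, was higher by 2.12 ± 0.26, while p27 (Cdkn1b) itself differed by 0.26 ± 0.14 (adjusted p = 0.167, and 0.40 and called without replicate 1 of Rb KO). The lower members were 2 of 3 D cyclins, which act upstream of the retinoblastoma protein: Ccnd1 read 7.29, 8.20 and 7.90 against 6.57, 6.39 and 6.49 (difference -1.31 ± 0.20), and Ccnd2 differed by -1.26 ± 0.22. Ccnd3, the other one, differed by 0.19 (adjusted p = 0.374, and 0.04 and 0.10 without replicate 3 of Rb KO or 2 of DKO). Under the B cell covariate 0 of the 21 were called and the median was -0.18.

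Most DNA replication genes rose. Of 55 members, 45 were higher (81.8%) and 1 lower, with a median of 0.99. The count was 29 and the median 0.66 without replicate 3 of Rb KO. The list's mean was 10.26, 9.80 and 9.28 in Rb KO against 10.63, 10.72 and 10.69 in DKO, so that the groups did not overlap and the Rb KO arrays spread more widely. Pold2, a subunit of DNA polymerase delta, read 10.66, 10.46 and 9.90 against 11.67, 12.03 and 12.05 (difference 1.57 ± 0.20, adjusted p = 0.000147). Rpa2, of the single-strand binding complex, was higher by 1.65 ± 0.23, Gmnn (geminin), which limits licensing, by 1.57 ± 0.23, and the checkpoint mediator Clspn by 1.78 ± 0.26. The lower member was Pold4, the small subunit of polymerase delta, which read 8.35, 9.79 and 10.03 against 6.54, 6.73 and 6.97 (difference -2.64 ± 0.41). With that covariate 0 of 55 were called, the median was -0.09, and Pold2, Rpa2, Gmnn and Clspn differed by 1.15, 0.49, 0.34 and 1.04. Pold4 changed direction there, to 0.32.

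Of 25 nucleotide and folate genes, 17 were higher (68.0%, against 19.5% of all genes) and 1 lower (median 0.81). Dctpp1, which removes abnormal dCTP, read 9.34, 8.72 and 8.22 against 11.18, 11.12 and 11.43 (difference 2.48 ± 0.23, adjusted p = 2.40e-05). Mthfd2, a mitochondrial folate enzyme, was higher by 1.94 ± 0.22, the CTP synthase gene Ctps by 2.01 ± 0.32 and the ribonucleotide reductase subunit Rrm2 by 1.11 ± 0.19. Impdh1, of guanine nucleotide synthesis, fell by 0.52, and this call was lost without replicate 2 or 3 of Rb KO or 1 or 2 of DKO (-0.51, -0.39, -0.47 and -0.54). Of 24 tested histone genes and their regulators, 16 were higher (66.7%) and 0 lower (median 0.63). H2ax, the variant phosphorylated at DNA breaks, read 11.41, 10.78 and 10.53 against 12.50, 12.32 and 12.41. Slbp, which binds the histone mRNA stem-loop, was higher by 1.34 ± 0.22 and Npat, the coactivator of histone genes, by 1.55 ± 0.27. In the fit with that covariate, 0 members of either list were called, with medians of 0.27 and -0.20.

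Mitotic genes showed the highest share of higher members among the lists. Of 58, 52 were higher (89.7%) and 1 lower, with a median of 1.05. The list's mean was 10.70, 10.07 and 9.50 in Rb KO against 11.11, 11.08 and 11.03 in DKO. Mki67, the proliferation marker Ki-67, read 11.89, 12.57 and 11.53 against 13.15, 13.08 and 13.10 (difference 1.12 ± 0.20, adjusted p = 0.00123). The centromere protein genes Cenpm and Cenpi were higher by 1.17 ± 0.22 and 1.58 ± 0.29. Ndc80, which attaches kinetochores to microtubules, was higher by 1.60 ± 0.32 and the kinesin gene Kif18b by 0.93 ± 0.19. Cdc25b, a phosphatase that activates Cdk1, was the lower member at -0.60 ± 0.13. In the 250 bases before the start, 20 of 51 mitotic genes (39.2%) held TTTGAA or TTCGAA, the CHR element bound by MuvB complexes, against 14.4% of the genes tested, and 3 (5.88%) held an E2F word. Fitted with the B cell covariate, 0 of 58 were called and the median was -0.35. There Mki67 differed by 1.59 (adjusted p = 0.0586), Cenpi by -0.14 and Ndc80 by -0.18.

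**Figure D2:**
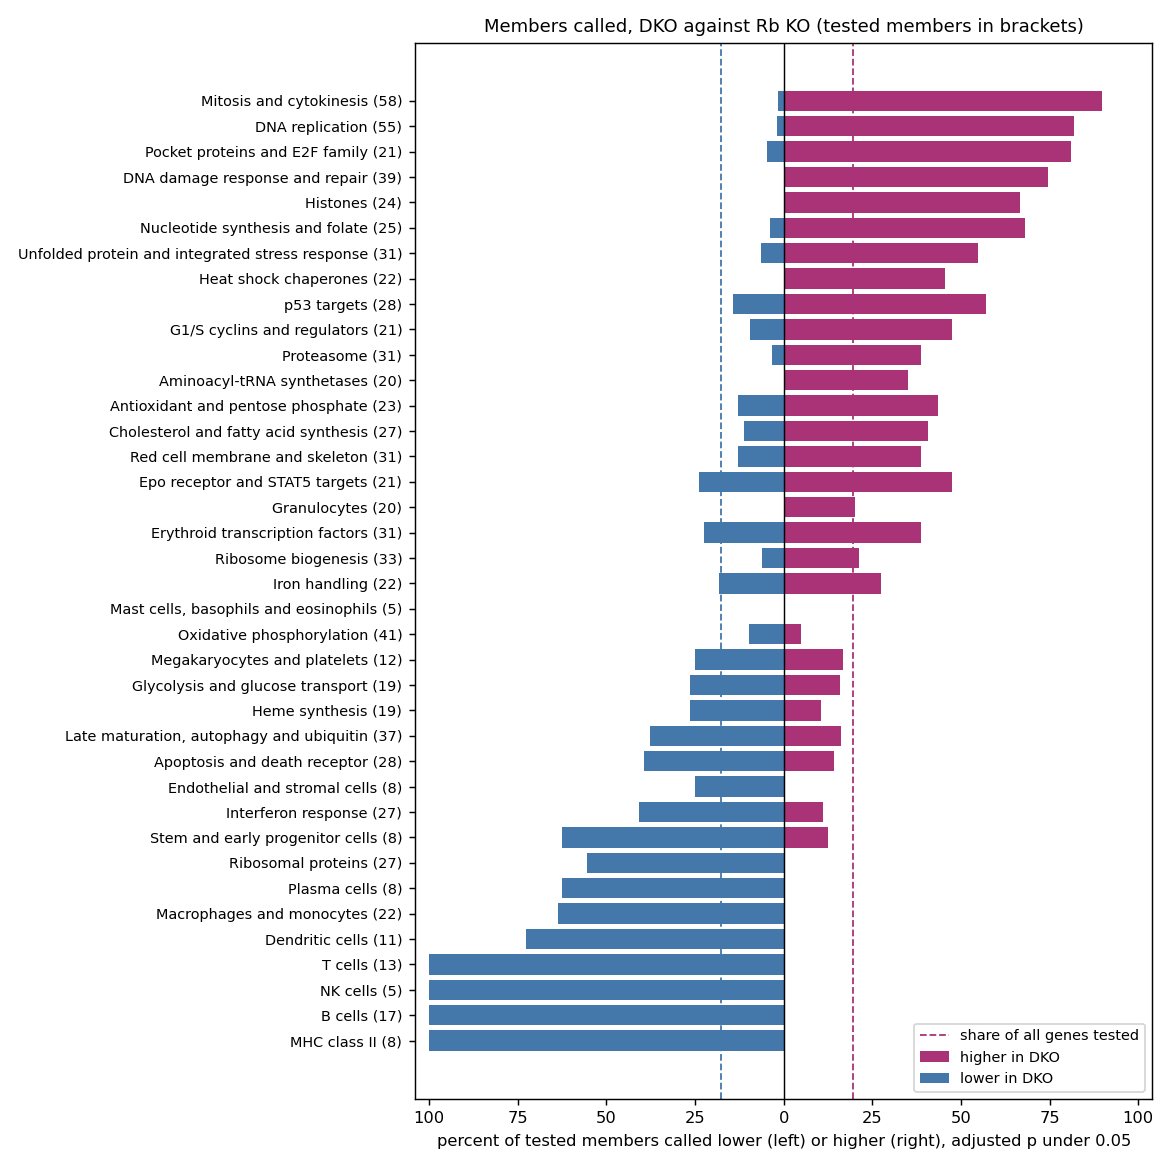
Share of tested members (x axis, percent) called higher (right) or lower (left) in DKO for the lists with at least 5 tested members (y axis). Dashed lines mark the 19.5% and 17.6% of all genes: cell cycle lists extend to 89.7% on the right, and all tested B cell, T cell, NK cell and MHC class II genes are on the left.

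Of 39 DNA damage and repair genes, 29 were higher (74.4%) and 0 lower, with a median of 0.89. The count was 19 without replicate 3 of Rb KO. Xrcc3, a DNA repair gene, read 7.71, 7.51 and 7.31 against 8.81, 9.0 and 8.77 (difference 1.35 ± 0.17, adjusted p = 0.000142). Fancl, the ubiquitin ligase of the Fanconi pathway, was higher by 1.22 ± 0.20 and Nbn, of the MRN break sensor, by 1.46 ± 0.26. With the B cell covariate 1 member was called and the median was 0.12.

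Of 28 tested p53 targets, 16 were higher (57.1%) and 4 lower, with a median of 1.14. Every Rb KO array mean (8.26, 8.21 and 8.09) lay below every DKO mean (9.06, 9.15 and 9.17). Phlda3, which inhibits Akt at the membrane, read 8.86, 8.46 and 7.72 against 11.22, 11.25 and 11.56 (difference 2.99 ± 0.24, adjusted p = 1.17e-05). Tnfrsf10b, the TRAIL death receptor, read 5.95, 5.93 and 5.96 against 8.36, 8.48 and 8.75 (difference 2.58 ± 0.16, adjusted p = 2.76e-06). Trp53inp1, which promotes p53 phosphorylation, was higher by 1.44 ± 0.15 and the nuclease gene Aen by 1.47 ± 0.17. The lower members were Pmaip1 (-0.46), Xpc (-0.53), Dcxr (-0.49) and the costimulatory gene Cd80 (-1.42). The DKO means of Xpc and Cd80 (5.80 and 5.65) lay under the filter level, so that the sizes of their differences are uncertain. Xpc, at 5.83 in E2f8 KO, passed the filter only through WT and Rb KO, where it was high, and its call carries that limit. Pmaip1 was not called without replicate 2 or 3 of Rb KO or 1, 2 or 3 of DKO (-0.36 to -0.52), nor Dcxr without replicate 3 of Rb KO or 2 of DKO (-0.37 and -0.44). In each of those last cases 2 members were lower. Under the B cell covariate 6 members were higher and 0 lower, and the median was 0.69. There Eda2r, Tnfrsf10b, Phlda3 and Aen differed by 4.46, 2.99, 2.27 and 1.82, all called.

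Of 28 apoptosis genes, 11 were lower (39.3%, against 17.6% of all genes) and 4 higher (14.3%, against 19.5%). The median was -0.27, and -0.44 without replicate 1 of Rb KO. Bcl2l11 (BIM), which neutralises antiapoptotic proteins, read 8.67, 8.62 and 8.57 against 10.22, 10.20 and 10.39 (difference 1.65 ± 0.15, adjusted p = 2.24e-05). Bcl2l1 (BCL-XL), the survival factor of late erythroblasts, read 12.38, 12.16 and 12.57 against 11.13, 11.13 and 10.92 (difference -1.31 ± 0.13, adjusted p = 4.16e-05). Both kept their direction and were called with the B cell covariate (1.57 and -1.51). Apaf1 and Casp9, of the apoptosome, were higher by 1.03 and 0.48, and Xiap, which inhibits caspases, by 0.99. Casp9 was not called without replicate 3 of Rb KO or 2 of DKO (0.45 and 0.43). Bnip3l, needed to clear mitochondria from reticulocytes, fell by 0.54 ± 0.07. Bcl2, abundant in lymphocytes, fell by 3.16 ± 0.50 and differed by 0.43 with the B cell covariate, where the list had 2 higher and 1 lower members and a median of 0.34.

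**Figure D3:**
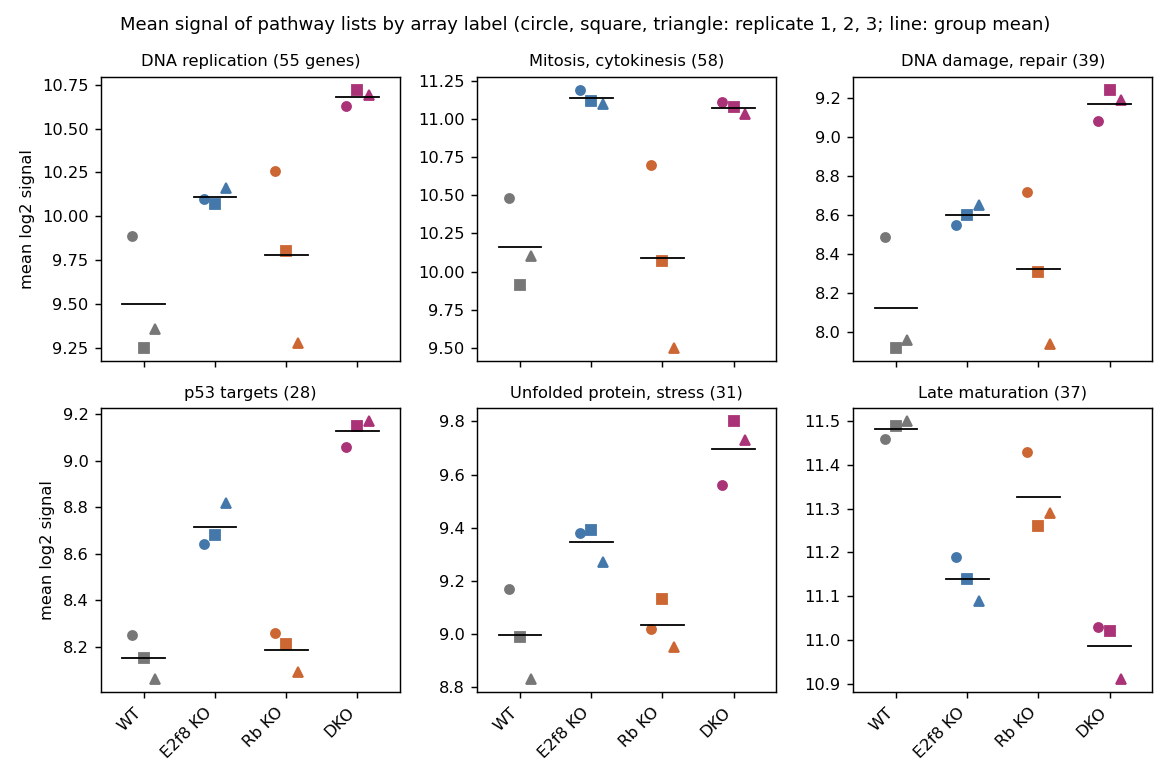
Mean log2 signal of 6 pathway lists (y axes, with a range of their own in each panel) by array label (x axis). Points are arrays and the line is the group mean: DNA replication lies at 9.28 to 10.26 in Rb KO and 10.63 to 10.72 in DKO, and late maturation at 11.26 to 11.43 and 10.91 to 11.03.

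Of 31 erythroid transcription factors, 12 were higher (38.7%, against 19.5% of all genes) and 7 lower (22.6%, against 17.6%), with a median of 0.43. Tal1, the bHLH factor of the erythroid core complex, read 10.87, 10.25 and 9.92 against 11.51, 11.44 and 11.45 (difference 1.12 ± 0.20). Its relative Lyl1 was higher by 0.97 ± 0.13, the repressor gene Gfi1b by 0.97 ± 0.14 and Myb, which maintains progenitors, by 1.48 ± 0.26. Gata1 was higher by 0.73 ± 0.22 and Klf1 by 0.59 ± 0.20. Gata1 was not called without replicate 3 of Rb KO (0.46) or 2 of DKO (0.70), and Klf1 not without any array but replicate 1 of Rb KO (0.37 to 0.61). Myc differed by -0.56 ± 0.30 (adjusted p = 0.167). It was called when replicate 1 of Rb KO was left out (-0.90) and differed by -0.37 when replicate 3 was. Leaving out replicate 3 of Rb KO gave 7 higher and 4 lower factors (median 0.23), leaving out replicate 2 of DKO gave 7 and 6, and 3 were lower when either replicate 2 of Rb KO or 1 of DKO was left out. With that covariate 0 were called (median 0.17).

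In the Epo receptor and STAT5 list, 10 of 21 were higher (47.6%, against 19.5% of all genes) and 5 lower (23.8%, against 17.6%), with a median of 0.39. Epo acts through its receptor, Jak2 and STAT5 to keep erythroblasts alive. Cish, a feedback inhibitor of that signal, read 6.44, 6.65 and 6.46 against 8.52, 8.05 and 9.04 (difference 2.02 ± 0.25, adjusted p = 0.000131). Podxl, a sialomucin, read 5.78, 6.05 and 6.07 against 7.86, 8.50 and 7.83, and Erfe (erythroferrone), the erythroblast hormone that lowers hepcidin, 7.09, 7.05 and 7.28 against 9.02, 9.08 and 8.71. Pim1 was higher by 0.82 ± 0.10, Trib3 by 1.57 ± 0.20 and Epor by 0.99 ± 0.21. The lower members were Bcl2l1, Kit (-1.01 ± 0.21), the receptor of stem cell factor, Stat5b (-1.22), the phosphatase gene Ptpn6 (-2.14) and Stat5a (-0.67), the last not called without replicate 2 or 3 of Rb KO or 1 or 3 of DKO (-0.59, -0.59, -0.55 and -0.57). Fitted with the B cell covariate, 5 were higher and 1, Bcl2l1, lower. There Cish, Podxl and Erfe differed by 2.59, 2.43 and 2.02, all called, and Epor by -0.15. The other 2 higher ones were Osm (1.60, and 0.66 without the covariate, not called without replicate 1 of Rb KO or 3 of DKO at 0.50 and 0.46) and Ptpn6. Osm had means of 5.69 in WT, 5.71 in E2f8 KO and 5.97 in Rb KO against 6.63 in DKO. It passed the filter only through DKO, so that its size and calls are uncertain. Ptpn6 thus had opposite calls, -2.14 without the covariate and 1.44 with it (adjusted p = 0.0396).

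Of 31 red cell membrane and skeleton genes, 12 were higher (38.7%, against 19.5% of all genes) and 4 lower (12.9%, below the 17.6% of all genes). The median was 0.24. Leaving out replicate 1 of Rb KO gave 20 higher members (median 0.44). The median was 0.14 without replicate 3 of Rb KO. Ank1 (ankyrin) was higher by 0.59 ± 0.11. Mpp1 (p55), a skeletal scaffold protein, read 13.11, 12.70 and 12.89 against 11.64, 11.39 and 11.47 (difference -1.40 ± 0.13, adjusted p = 2.06e-05). The other lower members were the glucose transporter gene Slc2a1 (-2.52), the channel gene Aqp9 (-1.21) and Trim10 (-0.40), the last not called without replicate 1 of Rb KO (-0.23) or any DKO array (-0.37 to -0.43). Tfrc was higher by 0.59 ± 0.21 and not called without any array but replicate 1 of Rb KO (0.32 to 0.64, the lowest without replicate 3 of Rb KO). Slc4a1 differed by 0.07 ± 0.06 (adjusted p = 0.333), by 0.11 without replicate 1 and 0.04 without replicate 3 of Rb KO, and by -0.06 where arrays were centred on this list. In the 250 bases before the start, 11 of 25 genes of the list (44.0%) held the GATA words (AGATAA or AGATAG or TGATAA or TGATAG) against 20.5% of genes tested. Fitted with the B cell covariate, 0 were higher and 3 lower, and Slc2a1 changed direction to 0.94 (not called).

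Heme synthesis had 2 higher members of 19 (10.5%, below the 19.5% of all genes) and 5 lower (26.3%, against 17.6%), with a median of 0.05. It had 8 higher and 4 lower without replicate 1 of Rb KO (median 0.27). The median was -0.10 and -0.17 without replicates 2 and 3 of Rb KO, -0.01 and 0.03 without replicates 1 and 3 of DKO. Alas2, the first enzyme of the erythroid pathway, read 14.19, 14.08 and 14.25 against 13.84, 13.73 and 13.82 (difference -0.38 ± 0.07, adjusted p = 0.00146). Fech, the last enzyme, fell by 0.43 ± 0.10, and the difference was -0.50 ± 0.12 for the mitochondrial carrier gene Slc25a39. The other lower members were Slc25a37 (mitoferrin, -0.24) and Hmox1 (-1.13). The former was not called without replicate 1 or 3 of Rb KO or any DKO array (-0.21 to -0.27), the latter not without replicate 2 of Rb KO (-0.89). Cpox, of the middle of the pathway, was higher by 0.69 and the heme exporter gene Flvcr1 by 0.64, the latter not called without replicate 3 of DKO (0.46), which left 1 higher member. With the B cell covariate 0 were higher and 2 lower (median -0.68). Of 22 iron genes, 6 were higher (27.3%) and 4 lower (18.2%, near the 17.6% of all genes). The median was 0.13, and 0.29 without replicate 1 and 0.00 without replicate 3 of Rb KO. Erfe was among the former. The lower ones were Iscu (-1.19 ± 0.15) and Isca1 (-0.70), which build iron-sulfur clusters, Ncoa4 (-0.72 ± 0.11), the ferritin autophagy receptor, and Trf (-1.48). Under the B cell covariate Iscu and Ncoa4 differed by -1.36 and -1.01, both called. Only 2 globin genes were tested, and 0 were called.

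Of 37 late maturation, autophagy and ubiquitin genes, 14 were lower (37.8%, against 17.6% of all genes) and 6 higher, with a median of -0.34 that was -0.21 without replicate 1 of Rb KO and -0.22 without replicate 3 of DKO. Bpgm, which makes the metabolite that lowers hemoglobin's oxygen affinity, read 12.90, 12.92 and 13.18 against 11.27, 10.98 and 10.75 (difference -2.0 ± 0.17, adjusted p = 1.40e-05). The ubiquitin enzymes of reticulocytes Ube2o and Ube2h differed by -1.24 ± 0.11 and -1.65 ± 0.15, and the ubiquitin ligase gene Rnf10 by -1.13 ± 0.09. Plek2, an actin-binding protein needed for enucleation, went the other way and read 10.13, 9.90 and 9.45 against 12.67, 12.36 and 12.23 (difference 2.60 ± 0.19, adjusted p = 6.91e-06). With that covariate 9 were lower and 1 higher, with a median of -0.74. Bpgm, Ube2o, Ube2h, Rnf10 and Plek2 differed by -1.98, -1.55, -2.17, -1.16 and 1.87 there, and all 5 were called.

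Of 23 antioxidant and pentose phosphate genes, 10 were higher (43.5%, against 19.5% of all genes) and 3 lower. The lower share was below the 17.6% of all genes, and the median was 0.38. Cat (catalase) read 13.91, 13.73 and 13.83 against 12.12, 12.05 and 11.65 (difference -1.88 ± 0.11, adjusted p = 2.45e-06), and Glrx (glutaredoxin) 12.75, 12.44 and 12.55 against 10.41, 10.69 and 10.33 (difference -2.10 ± 0.15). Taldo1 fell by 0.61 and was not called without replicate 1 or 3 of DKO (-0.59 and -0.60). Gsr, glutathione reductase, was higher by 1.90 ± 0.20. Fitted with the B cell covariate, Cat and Glrx differed by -2.22 and -2.56, both called, and 0 members were higher and 4 lower.

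**Figure D4:**
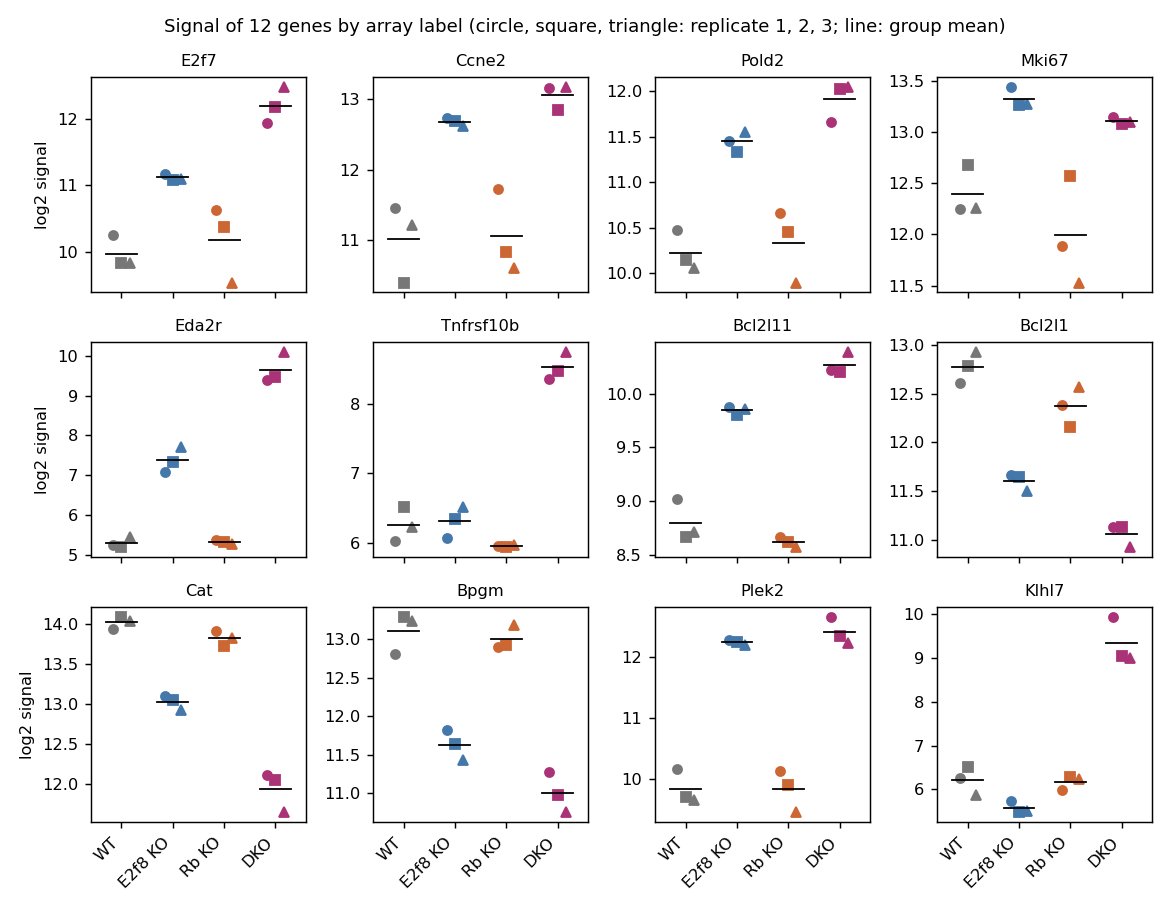
Log2 signal (y axes, with a range of their own in each panel) of 12 genes by array label (x axis), with 1 point per array and a line at the group mean. E2f7, Ccne2, Pold2, Mki67, Eda2r, Tnfrsf10b, Bcl2l11, Plek2 and Klhl7 are higher and Bcl2l1, Cat and Bpgm lower in DKO than in Rb KO with no overlap of arrays.

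In the unfolded protein and integrated stress response, 17 of 31 were higher (54.8%) and 2 lower (median 0.57, and 0.35 without replicate 3 of Rb KO). Dnajb9, a chaperone of the endoplasmic reticulum, read 9.32, 9.33 and 9.25 against 11.18, 11.09 and 11.44 (difference 1.94 ± 0.17, adjusted p = 1.54e-05). Ddit3 (CHOP) was higher by 2.44 ± 0.22, Chac1, which degrades glutathione, by 2.66 ± 0.33 and the serine synthesis gene Psat1 by 2.13 ± 0.25. The lower members were Pdia4 (-1.71) and the kinase gene Eif2ak4 (-0.82), the latter not called without replicate 2 or 3 of Rb KO or 1 or 3 of DKO (-0.69, -0.58, -0.67 and -0.79). Fitted with the B cell covariate, 5 were higher and 0 lower (median 0.61), Dnajb9 (2.18) and Psat1 (3.06) among them. Of 22 heat shock chaperones, 10 were higher (45.5%) and 0 lower (median 0.58), with Dnajb1 at 1.62 ± 0.25 and Hsp90aa1 at 1.34 ± 0.23. The count was 5 without replicate 3 of Rb KO, 2 of DKO or 3 of DKO, and the median 0.31 in the first case. The proteasome had 12 of 31 higher (38.7%), Psmd11 by 1.01 ± 0.15, and 1 lower, the activator gene Psme4 (-0.90). Its count was 22 when replicate 1 of Rb KO was left out, 4 when replicate 3 was, and 7 and 6 for replicates 2 and 3 of DKO. With the B cell covariate 1 chaperone and 0 proteasome genes were higher.

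In protein synthesis, 15 of 27 ribosomal protein genes were lower (55.6%, against 17.6% of all genes) and 0 higher (median -0.35). The lower ones numbered 9 and 7 without replicate 2 of Rb KO or 3 of DKO. Rpl5 read 11.53, 11.85 and 11.77 against 10.89, 10.94 and 10.66, and Rps14 fell by 0.77 ± 0.12. Aminoacyl-tRNA synthetases had 7 of 20 higher (35.0%) and 0 lower, with Gars at 1.49 ± 0.24. Ribosome biogenesis had 7 of 33 higher (21.2%, near the 19.5% of all genes), with Nop56 at 1.18 ± 0.19. It had 3 without replicate 2 or 3 of DKO. Its 2 lower members numbered 6 without replicate 1 and 0 without replicate 2 of Rb KO, and 4 without replicate 2 of DKO. Under the B cell covariate 0 ribosomal protein and 0 synthetase genes were called.

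Oxidative phosphorylation had 2 of 41 genes higher (4.88%) and 4 lower (9.76%), shares below the 19.5% and 17.6% of all genes, and 11 higher without replicate 1 of Rb KO. Glycolysis had 3 of 19 higher (15.8%) and 5 lower (26.3%). In cholesterol and fatty acid synthesis 11 of 27 were higher (40.7%) and 3 lower (11.1%, below the 17.6% of all genes), with a median of 0.25. The lower ones numbered 6 without replicate 1 of Rb KO. Insig1, which holds back sterol synthesis, read 8.72, 8.93 and 8.38 against a mean of 10.94 ± 0.06 (SD, n = 3) (difference 2.27 ± 0.19, adjusted p = 1.50e-05), and the squalene synthase gene Fdft1 was higher by 1.49 ± 0.19. The desaturase genes Scd1 and Scd2 differed by -3.81 and -1.93 and Dhcr7 by -0.65, and these were the lower members. With that covariate Insig1 differed by 2.51 and was called, Scd1 by -1.13 (adjusted p = 0.304). Of 27 interferon genes, 11 were lower (40.7%) and 3 higher (11.1%, below the 19.5% of all genes). The median was -0.32, and -0.16 without replicate 1 of Rb KO. Cxcl10 was higher by 2.22 ± 0.18, Irf9 by 0.63 and Usp18 by 1.22. Irf9 was not called without replicate 3 of Rb KO or 1 or 3 of DKO (0.50, 0.55 and 0.54), nor Usp18 without replicate 3 of Rb KO or 1 of DKO (0.80 and 1.12). The higher members numbered 5 when replicate 1 of Rb KO was left out and 1 when its replicate 3 or replicate 1 of DKO was. Rsad2 (viperin) read 13.71, 13.60 and 13.68 against 13.09, 12.70 and 12.66. Fitted with the B cell covariate, Cxcl10 and Rsad2 differed by 1.86 and -1.08, both called.

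E2f8 KO against WT sets the same change of the E2f8 label among arrays without the Rb label, and shares no array with DKO against Rb KO. The targeted genes did not mark these labels either. E2f8 was higher in E2f8 KO than in WT, by 0.86 (adjusted p = 0.00728). Rb1 had a mean of 12.82 in WT and 11.71 in E2f8 KO (difference -1.11, adjusted p = 0.000154), the latter below its 12.42 in Rb KO. Replicate 3 of E2f8 KO read 5.22 for Xist and 8.17 for Eif2s3y, close to replicate 3 of DKO and apart from the other 10 arrays. It called 1543 genes higher (11.9%) and 1845 lower (14.2%). Of the 2531 genes higher in DKO, 1367 (54.0%) were also higher in E2f8 KO, which is 88.6% of those higher there. Of the 2288 lower in DKO, 1543 (67.4%) were also lower in E2f8 KO, 83.6% of those lower there. Opposite calls numbered 2 and 2. Across genes, which are not independent replicates, the differences correlated with Pearson's r of 0.91 and Spearman's rho of 0.83. Medians were 0.63 for DNA replication, 1.02 for mitosis, 0.46 for p53 targets and -3.21 for B cell markers in E2f8 KO against WT, beside 0.99, 1.05, 1.14 and -4.16 in DKO against Rb KO.

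The difference between both differences was itself tested, and 10 of 12980 genes were called (0.077%), with the difference of DKO against Rb KO the more positive one in 7 and the more negative one in 3. At an unadjusted p under 0.05, limma counted 740 of the 12980. A share of 0.05 of the genes is expected under that threshold if no gene has unequal differences. Klhl7 had a mean of 6.21 ± 0.31 (SD, n = 3) in WT and 5.58 ± 0.14 in E2f8 KO, against 6.17 ± 0.17 in Rb KO and 9.32 ± 0.53 in DKO (difference of differences 3.78 ± 0.33, SE, adjusted p = 0.000465). Mid1 was at 7.5 ± 0.30, 6.77 ± 0.18, 7.12 ± 0.52 and 9.66 ± 0.48 in that order (3.26 ± 0.40, adjusted p = 0.00831). Tnfrsf10b was at 6.25 ± 0.24, 6.31 ± 0.22, 5.94 ± 0.02 and 8.53 ± 0.20 (2.53 ± 0.23, adjusted p = 0.000465). Eda2r rose under both comparisons, from 5.29 ± 0.14 in WT to 7.37 ± 0.32 in E2f8 KO and from 5.32 ± 0.06 in Rb KO to 9.65 ± 0.39 in DKO (2.25). Fhl1 (2.06), Podxl (1.82) and Snx16 (1.55), an endosomal sorting nexin, were the other genes with a positive value. Ccng2, an atypical cyclin of cell cycle arrest, was at 7.62 ± 0.17 in WT, 7.68 ± 0.32 in E2f8 KO, 7.45 ± 0.15 in Rb KO and 5.85 ± 0.10 in DKO (-1.67 ± 0.25). Syt14, a synaptotagmin, differed in opposite directions, by 0.65 in E2f8 KO against WT and by -0.91 in DKO against Rb KO (-1.56). The epoxide hydrolase gene Ephx3 rose by 2.25 in the former and by 0.82 in the latter (-1.44). Like Eda2r, Ephx3 lay below the filter level in WT and Rb KO, at 5.27 and 5.22. Both genes passed the filter only through the groups where they were high, so that their sizes and calls are uncertain. The E2f8 KO mean of Klhl7 also lay under that level, so that the size of its difference of differences is uncertain. The count ranged from 2 without replicate 1 of WT to 49 without replicate 1 of Rb KO, and was 20 without replicate 1 of DKO, 5 without replicate 3 of WT, 4 and 6 without replicate 1 or 2 of E2f8 KO, 4 without replicate 2 of Rb KO. It was 6 without replicate 2 of DKO. Klhl7 and Tnfrsf10b were called in each of these fits. Eda2r and Mid1 were not called without replicate 1 of WT (2.28 and 3.25). The other 6 were not called without that array, without replicate 1 of E2f8 KO or without replicate 2 of Rb KO, with each difference keeping its direction. Without replicate 3 of WT those still called among the 6 were Snx16, without replicate 2 of E2f8 KO Snx16 and Syt14, and without replicate 2 of DKO Podxl and Snx16. Ccng2 was also not called without replicate 3 of Rb KO (-1.60) or 3 of DKO (-1.67), and Syt14 not without replicate 3 of E2f8 KO (-1.53) or 3 of DKO (-1.60).

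**Figure D5:**
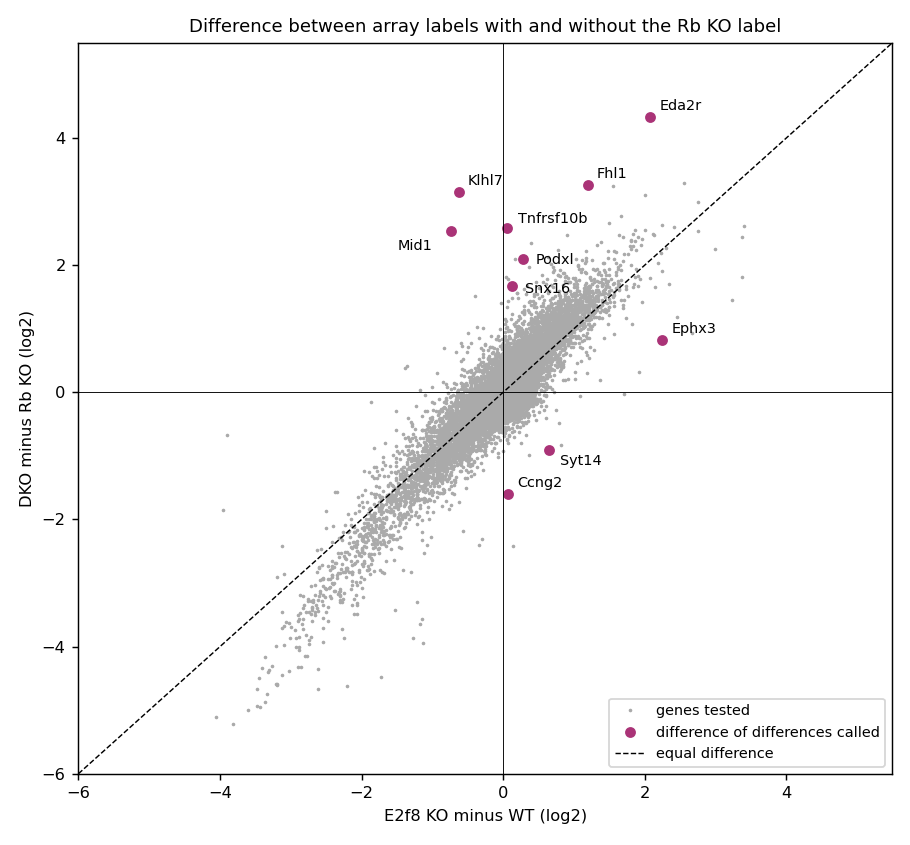
Difference of DKO against Rb KO (y axis, log2) plotted on that of E2f8 KO against WT (x axis, log2) for 12980 genes, with the 10 genes called for unequal differences in colour and a dashed line where both are equal. Klhl7 and Mid1 lie at 3.15 and 2.53 on the y axis and below 0 on the x axis.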

How the data were processed

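RNA of 12 sorted samples was hybridised to Affymetrix arrays, 1 sample per array. The values table holds the authors' processed signals on a scale taken as log2, since the values would exceed a scanner's range on another log base, and MAS5 is named, with no version, per the submitters' processing notes. The sources used here do not give the background correction or normalization, and no further normalization was applied.

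The table has 35557 probe sets, of which the platform annotation gives 21789 one symbol, 1621 several and 12147 none, and 21698 symbols were updated by gene number. The lowest 40% by mean (14223 probe sets) were removed, and the probe set with the highest mean stood for a gene. Differences came from limma 3.58.1 in R 4.3.3 (lmFit, contrasts.fit, eBayes with trend, two-sided), with all 12 arrays in 1 fit (8 residual degrees of freedom) and Benjamini-Hochberg adjustment over 12980 genes. With 3 arrays per group, their number limits the precision, and p-values measure the spread between these arrays.

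Members and gene lists were chosen with earlier results of these data known. Genes named were Rb1, E2f8 and other set genes, the 12 most changed called genes per direction whose arrays did not overlap, the same for genes called with and without the B cell covariate, for each list the 4 tested genes of lowest p, and up to 5 genes per direction from the interaction. Not all that the rule named are printed, and members that went against their list were named after their values were seen. Alternatives were other filters, scalings, thresholds, covariates and arrays left out. The fit was tested on simulated data.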

Additional observations from a re-analysis of the deposited data

Results flagged for a closer look

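In all, 10 genes differed between the E2f8 comparisons in the presence and absence of the Rb label by a test of the difference itself (limma, adjusted over 12980 genes). The values are DKO minus Rb KO less E2f8 KO minus WT, on the log2 scale. The difference was 3.78 for Klhl7, 3.26 for Mid1, 2.53 for Tnfrsf10b and 2.25 for Eda2r. It was 2.06 for Fhl1, 1.82 for Podxl and 1.55 for Snx16. It was -1.67 for Ccng2, -1.56 for Syt14 and -1.44 for Ephx3. Eda2r and Ephx3 passed the filter only through the groups where they were high, so that their values are uncertain. The E2f8 KO mean of Klhl7 (5.58) lay under the filter level, so that the size of its value is uncertain too.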

How the results depend on the processing

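DKO against Rb KO kept within 1.5 times of its 4819 called genes under other scalings, probe set rules and array weights, and gave 3423 to 5789 when 1 array was left out. It gave 7398 calls over all probe sets, 3082 at an adjusted p under 0.01, 2168 with a 2-fold change required, 516 with the B cell covariate and 989 with B cell and macrophage covariates. The interaction gave 6 calls with the lowest 60% removed and 53 with the B cell covariate, and 2 to 49 with 1 array left out. Centring on the red cell membrane list gave 2026 higher and 2250 lower genes and shifted the median of all genes to -0.15.

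Under the B cell covariate these genes reversed, and the cause was not tested: Rbl1 -0.28, E2f1 -0.21, E2f3 -0.33, E2f4 -0.02, Cdkn1b -0.29, Pold4 0.32, Cenpi -0.14, Ndc80 -0.18, Bcl2 0.43, Epor -0.15, Gata1 -0.27, Klf1 -0.56, Myc 1.32, Tfrc -0.50, Slc4a1 -0.08, Impdh1 0.23, Xpc 0.09, Cd80 0.09, Apaf1 -0.03, Cpox -0.26, Hmox1 0.99, Slc2a1 0.94, Stat5a 0.17, Stat5b 0.31, Ptpn6 1.44, Scd2 0.91, Pdia4 1.19, Eif2ak4 0.81, Usp18 -0.33, Rfc3 -0.15, Ccnd3 -0.12. With the macrophage list added they were Rbl1 -0.17, E2f1 -0.07, E2f3 -0.04, Cdkn1b -0.23, Pold4 0.35, Bcl2 0.14, Epor -0.05, Gata1 -0.11, Klf1 -0.40, Myc 1.39, Tfrc -0.29, Slc4a1 -0.07, Spic 0.22, Impdh1 0.17, Xpc 0.00, Cd80 0.10, Cpox -0.06, Hmox1 0.90, Trf 0.25, Slc2a1 0.99, Stat5a 0.08, Stat5b 0.33, Ptpn6 1.40, Scd2 0.81, Pdia4 1.31, Eif2ak4 0.69, Ccnd3 -0.02. Centring on the red cell membrane list reversed Slc4a1 (-0.06).

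Replicate numbers shared by the labels were not used as pairs. Same-numbered Rb KO and DKO arrays had correlations of deviations of 0.252, 0.073 and 0.180. Replicates 1 and 3 of Rb KO correlated best with the DKO array of their own number, and replicate 2 with replicate 3 of DKO (0.313). With 3 arrays per group these values cannot decide whether arrays were paired. With the replicate block, DKO against Rb KO had 4750 called genes, of which 2400 higher and 2191 lower ones were shared, and the interaction gave 13. Low signals near the filter level limit how well the lowest Rb KO values are known.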
